A study of Mus musculus with 15 samples.

Results

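The genes described here encode the enzymes of sterol and fatty acid synthesis and the proteins that sense and carry sterol, measured in regulatory T cells (Tregs) sorted from mouse skin and lymph node. The set was a list of 36 gene names, not filtered on any measured value but drawn up with earlier results of these data known. Of these names, 35 were found among the 24015 genes of the count table. The missing name, Sc4mol, is an older symbol of Msmo1, which is present. Of the 35 genes, 34 passed the filter on low counts, as did 13578 genes in all. Hmgcs1, the enzyme that makes hydroxymethylglutaryl-CoA, was listed at 0 in all 15 libraries, as were 6245 genes of the table, and was not tested. The counting tool and annotation are not given, and whether the 0 reflects the cells or the counting was not tested.

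RNA sequencing covered 15 libraries in 5 groups of 3 biological replicates, all from adult C57BL/6 mice. Wild type (WT) mice were Foxp3 cre-eyfp, and conditional knockout (cKO) mice were Foxp3 cre-eyfp Rora fl/fl, so all animals carry the Cre and YFP allele, and Rora is deleted where Foxp3 drives the Cre. Rora encodes the nuclear receptor RORα, and the study asked what this receptor does in Tregs of the skin. Tregs were sorted as CD45+CD3+CD4+YFP+ cells. Skin of both genotypes was either left untreated, with back skin and ears taken, or treated on the ears with 4 applications of MC903 in ethanol, with ears taken. MC903 is a vitamin D analogue that causes an inflammation resembling atopic dermatitis. The fifth group was Tregs of superficial and deep axillary lymph nodes (LN) of untreated WT mice. Skin was freed of fat and digested with enzymes for 90 minutes and no such digestion is given for LN, so digestion moves with tissue, and the site sampled moves with MC903; neither can be told apart from the group. The p-values below set the differences between groups against the spread between libraries, estimated from all 15 libraries together.

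Cholesterol is built from acetyl-CoA through mevalonate and the isoprenoid diphosphates to squalene, which is closed to lanosterol and trimmed to cholesterol. Fatty acids are built from the same precursor by acetyl-CoA carboxylase and fatty acid synthase, then lengthened by elongases and given double bonds by desaturases. Both routes are controlled by the SREBP transcription factors, which SCAP carries out of the endoplasmic reticulum and INSIG proteins hold back when sterol is plentiful. In Tregs the mevalonate route is known to be needed for suppressive function, and RORα has been found with cholesterol in its ligand pocket.

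Promoters are shown for 5 genes that differed between skin and LN in both comparisons described below. RefSeq windows on GRCm38.p6, which is not the mm9 build of the files, were found for 28 of the 35 genes. The 200 bases before the start are shown for 4 genes that were higher in skin Tregs (Insig1, Cyp51, Idi1, Elovl5) and for Nsdhl, which was lower, each 5′ to 3′ on the gene's strand. Bases just after the start were found in an annotated transcript of each of the 4 higher genes but not of Nsdhl, so its start is less sure. Capitals mark CCAAT, the box bound by NF-Y, or its reverse ATTGG, and CACGTG, an E-box that SREBPs can bind.
Insig1, chr5:28071212-28071411, plus strand: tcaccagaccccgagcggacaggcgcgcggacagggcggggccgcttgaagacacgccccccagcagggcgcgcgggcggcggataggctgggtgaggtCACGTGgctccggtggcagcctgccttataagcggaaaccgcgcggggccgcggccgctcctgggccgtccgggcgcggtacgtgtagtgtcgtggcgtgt
Cyp51, chr5:4104698-4104897, minus strand: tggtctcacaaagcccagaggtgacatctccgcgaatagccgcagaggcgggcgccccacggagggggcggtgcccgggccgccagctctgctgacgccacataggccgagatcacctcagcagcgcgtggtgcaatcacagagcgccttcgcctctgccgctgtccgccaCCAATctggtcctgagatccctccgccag
Idi1, chr13:8885406-8885605, plus strand: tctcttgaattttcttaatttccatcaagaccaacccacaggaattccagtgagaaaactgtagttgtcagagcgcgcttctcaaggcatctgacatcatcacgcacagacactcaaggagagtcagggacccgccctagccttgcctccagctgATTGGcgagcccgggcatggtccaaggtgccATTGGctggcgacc
Elovl5, chr9:77917165-77917364, plus strand: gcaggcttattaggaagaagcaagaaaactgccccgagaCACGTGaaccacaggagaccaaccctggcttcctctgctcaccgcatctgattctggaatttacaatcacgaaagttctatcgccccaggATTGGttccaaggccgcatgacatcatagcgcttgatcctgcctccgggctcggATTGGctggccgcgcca
Nsdhl, chrX:72918321-72918520, plus strand: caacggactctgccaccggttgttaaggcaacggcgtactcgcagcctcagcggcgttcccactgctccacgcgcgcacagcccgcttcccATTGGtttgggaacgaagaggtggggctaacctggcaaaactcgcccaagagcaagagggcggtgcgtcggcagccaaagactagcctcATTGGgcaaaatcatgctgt

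Over the full windows of 300 bases, searched on both strands, CCAAT stood in 24 of the 37 member windows (64.9%) and in 37.41% of all 32851 windows. CACGTG stood in 7 member windows (18.9%) against 7.15% of all, and TCACNCCAC, a sterol response element consensus, in 1 (2.7%, that of Hmgcs1) against 1.24%. The RORα response element (RORE) was in none of the member windows and in 0.38% of all. CCAAT was in the windows of 8 of 10 genes called higher in untreated skin than in LN, 2 of 2 called lower and 12 of 15 not called. Of the 4 genes called lower, Scd2 and Fads1 had no window, so the windows cannot show whether these letters go with direction. A match describes the sequence only.

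Library totals ran from 19.8 to 27.7 M counts (M, the mega prefix). Levels are given as CPM, counts per M of the scaled library, and only within a gene. Foxp3 was present in every library, at 110 to 202 CPM in skin and 16.2 to 41.8 CPM in LN. Rora was 1327, 1341 and 1510 CPM in WT untreated skin against 822, 1074 and 1199 CPM in cKO untreated skin, and 813, 739 and 812 CPM against 632, 492 and 473 CPM after MC903. Its log2 difference was -0.43 ± 0.15 (SE; adjusted p = 0.250) in untreated skin and -0.57 ± 0.15 (0.191) in MC903 skin, not called in either, and -0.50 ± 0.10 (0.0193) averaged over treatments. The count covers the whole gene and the floxed exon is not given in the sources used here, so it is only a partial check of the deletion.

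Transcripts of other cells were uneven. Summed keratinocyte markers (16 genes) were 178 to 867 CPM in skin libraries and 33.0 to 34.4 CPM in LN. Summed sebocyte and adipocyte markers (17 genes) reached 302 CPM in cKO untreated replicate 1 and 227 CPM in WT untreated replicate 2, were 19.0 to 134 CPM in the other skin libraries and 2.85 to 5.96 CPM in LN. Summed B cell markers were 242, 210 and 778 CPM in LN and 7.54 to 25.4 CPM in skin, with 8 of 8 tested lower in skin in both tissue comparisons. LN replicate 3 also held the most myeloid (2604 CPM) and cell cycle (3405 CPM) transcript of the LN group. Immediate early and heat shock genes summed to 23255 to 32144 CPM in untreated skin, 14047 to 16268 CPM in MC903 skin and 4591 to 4919 CPM in LN. Except where values without a library are given, the part of these transcripts in the results was not tested.

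**Figure D1:**
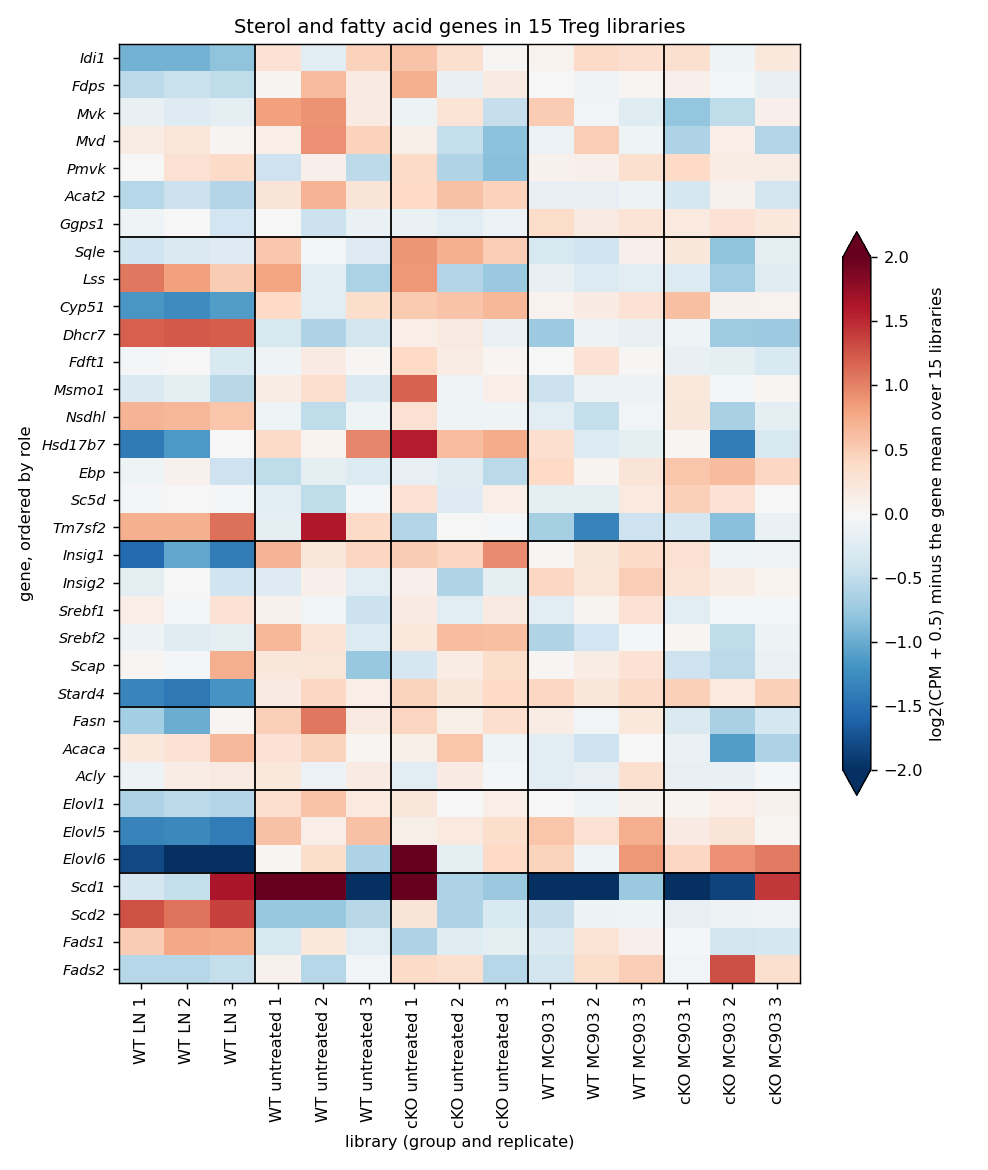
Each cell is log2(CPM + 0.5) of a gene in 1 library minus the mean of that gene over the 15 libraries, with genes ordered by role, libraries by group, and colour capped at 2 in either direction. The LN columns stand apart for Idi1, Cyp51, Insig1, Stard4, Elovl5 and Elovl6 (low) and for Dhcr7, Nsdhl and Scd2 (high), while Scd1 varies within groups.

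Tregs of untreated WT skin held more transcript of 4 of 7 tested mevalonate enzymes, of the sterol sensor Insig1 and the sterol carrier Stard4, and of all 3 elongases than Tregs of LN, and less of the late sterol enzymes Dhcr7 and Nsdhl and of the desaturases Scd2 and Fads1. A gene was called higher or lower at an adjusted p under 0.05 over all genes tested, by edgeR's quasi-likelihood test unless another tool is named. Of the 34 genes, 12 were called higher (35.3%, against 28.8% of all genes tested) and 4 lower (11.8%, against 28.8%), 16 in all (47.1%, against 57.6%). The libraries of the groups did not overlap for 17 (50%, against 63.4%). Skin and LN Tregs differed in most genes, and the share called here was below that background. The median log2 difference of the 34 was 0.42, against 0.01 for all genes. In bulk RNA, fewer cells of a type and less RNA per cell cannot be told apart.

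MC903-treated WT skin gave 11 genes higher (32.4%, against 26.5%) and 5 lower (14.7%, against 24.5%) than LN, 16 in all (47.1%, against 51.1%). The libraries did not overlap for 21 of the 34 (61.8%, against 62.9%), and the median was 0.18, against 0.02 for all genes. The comparison uses the same 3 LN libraries as the one above, so the pair is not independent, and values are given side by side.

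Among the mevalonate genes, Idi1, the isomerase that readies the isoprene unit, was 33.6, 33.4 and 37.1 CPM in LN, 80.1, 56.1 and 89.6 CPM in WT untreated skin and 68.1, 85.1 and 82.7 CPM in WT MC903 skin. Every skin library lay above every LN library. The log2 differences from LN were 1.12 ± 0.18 (adjusted p = 9.15e-05) untreated and 1.18 ± 0.18 (7.39e-05) after MC903. Fdps, which makes farnesyl diphosphate, was 52.9, 55.9 and 53.4 CPM in LN, 78.9, 119 and 85.7 CPM untreated and 76.9, 72.4 and 78.2 CPM after MC903. The groups did not overlap, with log2 differences of 0.80 ± 0.19 (0.00193) and 0.49 ± 0.19 (0.0415). Leaving out any 1 of the 6 MC903 and LN libraries took the latter out of the calls (adjusted p up to 0.102). Here and below such a limit is the largest over all alternatives tried. Of these, the alternative without the 3 libraries richest in epithelial and fat markers leaves WT untreated skin with replicate 3 alone. Acat2, the thiolase that joins the first acetyl units, was 24.8, 27.3 and 24.4 CPM in LN and 44.3, 59.3 and 44.4 CPM in untreated skin, again without overlap (0.95 ± 0.16, 0.000109). After MC903 it was 33.0, 33.0 and 34.3 CPM, still above every LN library but not called by edgeR (0.39 ± 0.16, 0.0514), and was called under 8 of 16 alternatives, DESeq2 and limma-voom among them.

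Mvk, mevalonate kinase, was 8.98, 8.28 and 8.79 CPM in LN and 18.0, 19.0 and 11.2 CPM in untreated skin. The groups were apart, by 0.89 ± 0.31 (0.0212), but the call was lost without WT untreated replicate 1, WT untreated replicate 2 or LN replicate 2. It was also lost without the 2 libraries richest in sebocyte and adipocyte markers and without the 3 richest in epithelial and fat markers. The latter leaves WT untreated skin with replicate 3 alone, and the difference was 0.36. The smallest adjusted p over the alternatives was 0.00971. After MC903 Mvk overlapped LN and was not called by edgeR (0.31 ± 0.30, 0.411). Ggps1, which makes geranylgeranyl diphosphate for protein prenylation, was 62.9, 66.5 and 51.0 CPM in LN and 65.8, 49.0 and 60.6 CPM in untreated skin, which overlapped. In MC903 skin it was 86.1, 75.0 and 80.5 CPM, above every LN library (0.42 ± 0.14, 0.0169), and the call was lost without LN replicate 3 (largest adjusted p 0.0578). Pmvk, phosphomevalonate kinase, and Mvd, the decarboxylase after it, were not called in either comparison with all libraries in the fit. In untreated skin Pmvk differed from LN by -0.51 ± 0.28 (0.135). It was called lower there without the 2 libraries richest in sebocyte and adipocyte markers.

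Of the 11 genes from squalene to cholesterol, 2 were higher and 2 lower in untreated skin, against 28.8% of all genes each way. Cyp51, the lanosterol demethylase, was 51.7, 48.3 and 53.0 CPM in LN, 153, 98.9 and 148 CPM untreated and 122, 130 and 141 CPM after MC903. Skin and LN were well separated, by 1.39 ± 0.17 (4.53e-06) and 1.36 ± 0.17 (7.62e-06). Dhcr7, the reductase that completes cholesterol, went the other way, with 32.5, 33.5 and 32.9 CPM in LN, 11.1, 8.89 and 10.7 CPM untreated and 8.23, 12.9 and 12.5 CPM after MC903. No skin library reached the LN level (-1.69 ± 0.23, 1.50e-05, and -1.55 ± 0.23, 4.48e-05). Nsdhl, a dehydrogenase of the demethylation complex, was 27.0, 26.7 and 24.5 CPM in LN, 15.6, 11.5 and 15.7 CPM untreated and 14.2, 11.7 and 15.9 CPM after MC903. It too was lower in every skin library (-0.87 ± 0.23, 0.00454, and -0.90 ± 0.23, 0.00417). The first call was lost without the 3 libraries richest in keratinocyte, sebocyte and adipocyte markers, which leaves WT untreated skin with replicate 3 alone. The first difference lay between -0.94 and -0.74 under every alternative.

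Hsd17b7, the ketone reductase of the same complex, was 4.79, 5.84 and 13.7 CPM in LN and 17.9, 14.3 and 27.1 CPM in untreated skin. The groups were apart, though LN replicate 3 came close to the lowest skin library. The call, at a difference of 1.28 ± 0.43 (0.0200), was lost without WT untreated replicate 3, LN replicate 1 or LN replicate 2 (adjusted p up to 0.0886). After MC903 Hsd17b7 was not called by edgeR (0.73, 0.172), but was called by limma-voom and without LN replicate 3. Tm7sf2, a sterol reductase, was 5.11, 5.11 and 6.84 CPM in LN, 2.51, 9.86 and 3.93 CPM in untreated skin and 1.65, 0.854 and 2.06 CPM in MC903 skin. Untreated skin spanned the LN values, and MC903 skin lay below them (-1.90 ± 0.52, 0.00674). Squalene synthase Fdft1, squalene epoxidase Sqle, lanosterol synthase Lss and the later enzymes Msmo1, Ebp and Sc5d were not called by edgeR in either comparison. Ebp after MC903 was at the threshold (0.37 ± 0.15, 0.0502) and was called under 9 of 16 alternatives, DESeq2 and limma-voom among them. Lss was 10.7, 9.04 and 7.12 CPM in LN and 4.34, 3.94 and 4.12 CPM after MC903, apart but at an adjusted p of 0.0592, and limma-voom called it in both comparisons.

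Of the 6 sterol sensing and transport genes, 2 were higher in untreated skin and 3 after MC903, and none was lower. Of all genes tested, 28.8% were higher and 28.8% lower in untreated skin, and 26.5% and 24.5% after MC903. Insig1, the anchor that holds SCAP in the endoplasmic reticulum and is itself an SREBP target, was 13.4, 19.3 and 14.9 CPM in LN, 64.3, 46.6 and 54.3 CPM untreated and 40.6, 46.6 and 52.4 CPM after MC903. All skin libraries lay well above the highest LN library (1.80 ± 0.20, 1.52e-06, and 1.56 ± 0.20, 9.15e-06). Stard4, a soluble protein that moves sterol between membranes, was 14.2, 13.3 and 15.8 CPM in LN, 40.7, 48.4 and 40.0 CPM untreated and 48.6, 42.6 and 47.5 CPM after MC903. Its spread was small in every group (1.58 ± 0.15, 2.40e-07, and 1.68 ± 0.15, 1.68e-07). Insig2, the other INSIG, was 41.2, 47.2 and 35.5 CPM in LN and 39.1, 49.96 and 39.7 CPM in untreated skin, which overlapped, and 62.3, 55.4 and 66.0 CPM after MC903, which did not. That difference of 0.57 ± 0.18 (0.0141) was lost without WT MC903 replicate 3 (0.0526). The regulators themselves, Srebf1, Srebf2 and Scap, were not called by edgeR. Srebf2 was 156, 140 and 147 CPM in LN and 263, 201 and 137 CPM in untreated skin, where 1 library lay below the LN range (0.44 ± 0.21, 0.0845). It was called by DESeq2 and without WT untreated replicate 3 (smallest adjusted p 0.0124). The difference of Scap was -1.06 without the 3 libraries richest in epithelial and fat markers. That leaves WT untreated skin with replicate 3 alone, where Scap was 23.5 CPM, against 46.5 and 47.0 CPM in replicates 1 and 2.

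**Figure D2:**
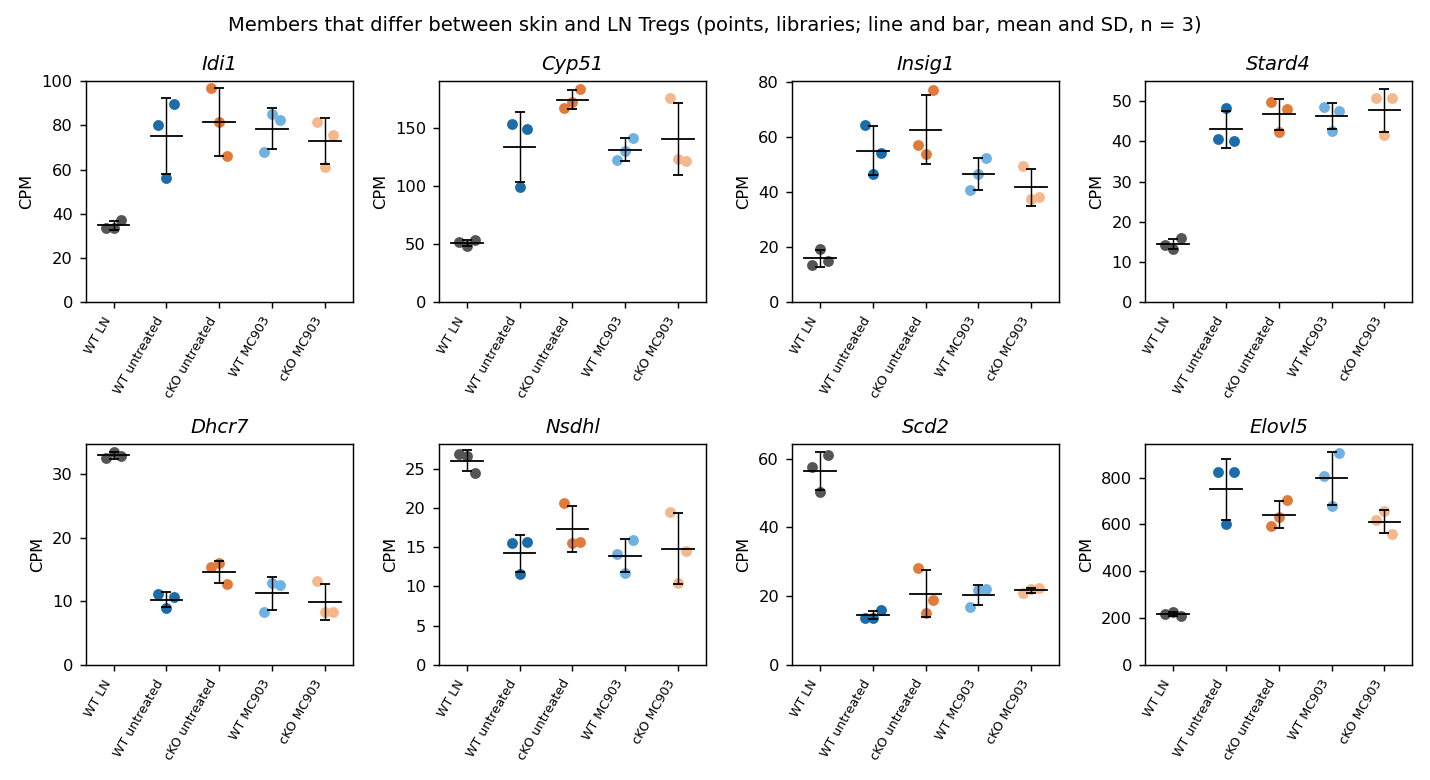
CPM of 8 genes by group, each point a library, with the mean (line) and SD (bar) of 3 libraries. Every skin library of either genotype lies above the LN libraries for Idi1, Cyp51, Insig1, Stard4 and Elovl5 and below them for Dhcr7, Nsdhl and Scd2.

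On the fatty acid side all 3 elongases were higher in skin. Of all genes tested, 28.8% were higher in untreated skin and 26.5% after MC903. Elovl5, which lengthens polyunsaturated chains, was 217, 224 and 209 CPM in LN, 825, 601 and 825 CPM untreated and 806, 680 and 906 CPM after MC903. The skin and LN values lay far apart (1.79 ± 0.14, 4.18e-08, and 1.88 ± 0.14, 3.55e-08). Elovl1, which makes very long saturated chains, was 106, 112 and 108 CPM in LN, 206, 241 and 186 CPM untreated and 164, 153 and 172 CPM after MC903, without overlap (0.95 ± 0.11, 3.16e-06, and 0.58 ± 0.11, 0.000476). Elovl6, which lengthens palmitate, was 11.8, 10.1 and 8.60 CPM in LN, 43.4, 54.4 and 27.4 CPM untreated and 58.1, 40.0 and 77.9 CPM after MC903. It was higher in every skin library, with a wider spread (2.04 ± 0.58, 0.00949, and 2.53 ± 0.58, 0.00331).

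Fasn, fatty acid synthase, was 34.4, 27.7 and 57.1 CPM in LN and 76.8, 115 and 62.9 CPM in untreated skin. LN replicate 3, the library of its group with the most B cell and myeloid transcript, was the highest of LN but still below skin (1.10 ± 0.25, 0.00133). The call was lost without the 3 libraries richest in epithelial and fat markers. That leaves WT untreated skin with replicate 3 alone, and the difference was 0.66. After MC903 Fasn was not called by edgeR (0.59, 0.0550), but was called under 7 of 16 alternatives, DESeq2 and limma-voom among them. Acly and Acaca, which supply its substrates, were not called. Acly was 163, 193 and 197 CPM in LN and 202, 160 and 196 CPM in untreated skin, fully overlapping (0.01 ± 0.15, 0.949).

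The desaturases divided. Scd2, a stearoyl-CoA desaturase and close paralog of Scd1, was 57.6, 50.2 and 61.1 CPM in LN, 13.7, 13.7 and 15.8 CPM untreated and 16.9, 21.9 and 22.0 CPM after MC903. Every skin library was below every LN library (-1.97 ± 0.21, 1.03e-06, and -1.47 ± 0.20, 2.34e-05). Fads1, a front-end desaturase of polyunsaturated chains, was 10.2, 12.3 and 12.1 CPM in LN, 5.48, 8.18 and 5.92 CPM untreated and 5.61, 8.54 and 7.58 CPM after MC903. The groups were apart (-0.81 ± 0.27, 0.0180, and -0.67 ± 0.27, 0.04995), but the untreated call was lost without WT untreated replicate 1 or 3 or LN replicate 2 or 3 (adjusted p up to 0.0660), and the MC903 call without any 1 of its 6 libraries (up to 0.216). Fads2, the other front-end desaturase, was close to absent, with 0, 0 and 1 counts in LN, 6, 0 and 4 counts untreated and 2, 12 and 14 counts after MC903. It was called higher after MC903 (0.0448), a call lost without any 1 LN library or without WT MC903 replicate 2 or 3 (up to 0.142).

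Of the 16 genes called in each tissue comparison, 11 held under all alternatives that could be fitted, up to 16 for each gene. In the authors' deposited table of LN against skin, the 16 genes called here for untreated skin were also called, in the same direction, and the other 18 were not. That table compares the same WT groups of this series, so it is not an independent test. Exons of Cyp51, Elovl1, Fdft1, Fdps, Idi1, Scap, Srebf1, Lss, Scd2 and Tm7sf2 overlap another annotated gene, and whether reads were counted by strand is not given, so their counts may hold reads of the neighbour. Reads of Scd1 and Scd2 could likewise be shared. Exons of Hmgcs1, which had no counts in any library, overlap the antisense gene Gm48342 on the opposite strand (longest overlap 458 bp). Whether this overlap bears on the missing counts of Hmgcs1 was not tested.

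**Figure D3:**
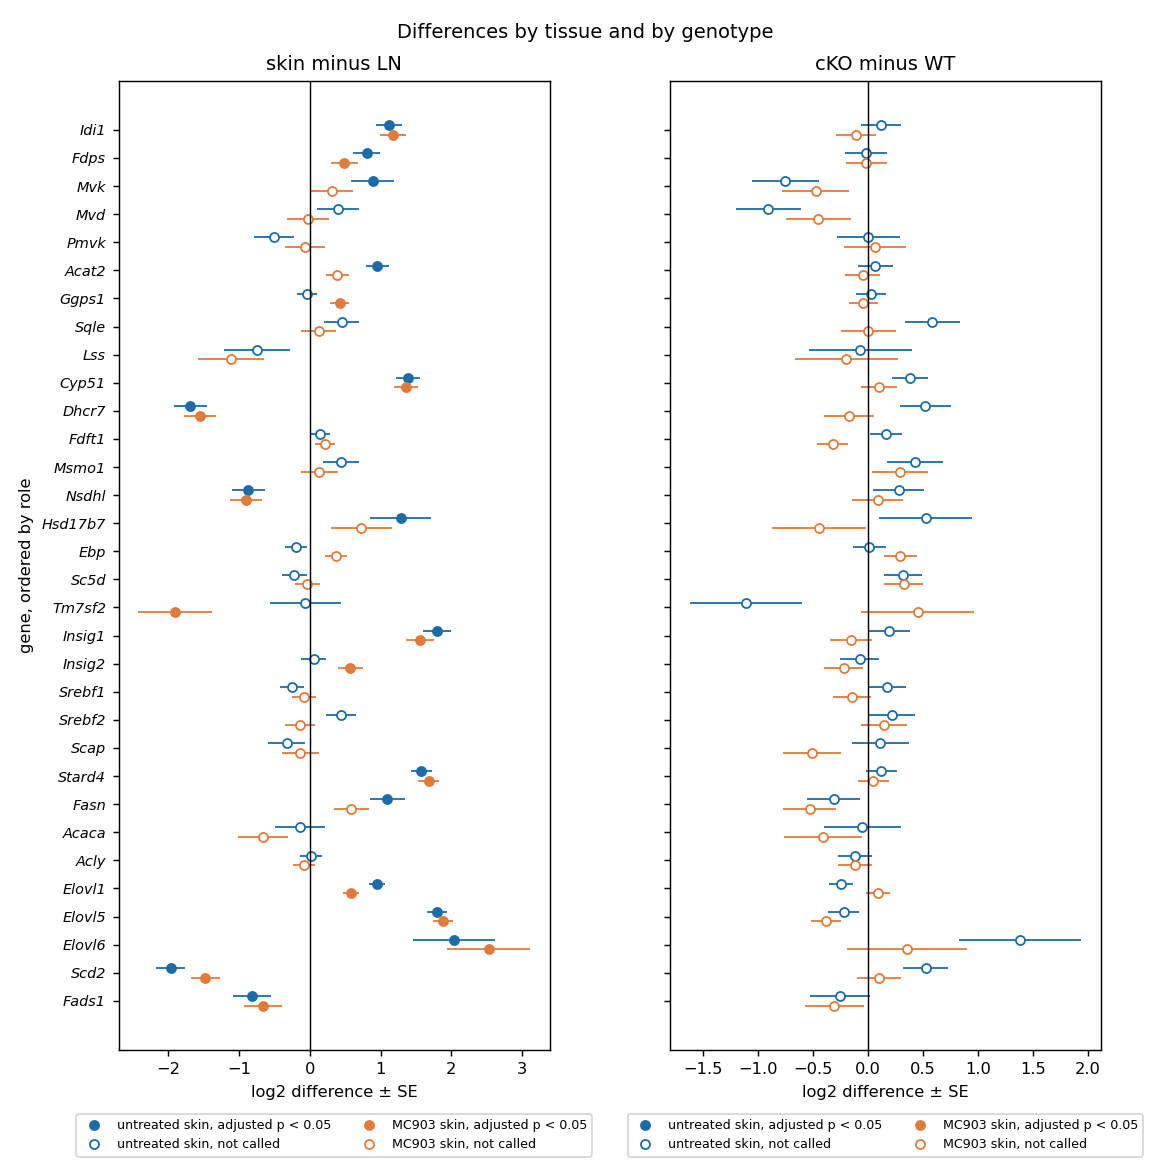
Log2 differences ± SE of 32 genes, skin minus LN (left) and cKO minus WT (right), for untreated and MC903 skin, with filled points at an adjusted p under 0.05. Filled points are on the left panel only; Scd1 and Fads2, whose errors are wide, are not drawn.

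Other genes of the same pathways were divided in the tissue comparison. Of 15 tested further sterol and isoprenoid enzymes, 4 were higher and 4 lower in untreated skin (26.7% each, against 28.8% of all genes each way), and 4 and 4 after MC903 (against 26.5% and 24.5%). Rabggtb, the catalytic subunit of the Rab prenyltransferase, was 28.6, 28.2 and 27.6 CPM in LN and 58.2, 81.9 and 80.5 CPM in untreated skin (1.39 ± 0.15, 1.59e-06; 0.90 ± 0.15, 0.000145 after MC903). Fntb, the beta subunit of farnesyltransferase, was 16.9, 16.8 and 16.4 CPM in LN and 1.89, 2.96 and 3.23 CPM in untreated skin (-2.63 ± 0.35, 1.12e-05; -2.79 ± 0.35, 8.93e-06). Nus1, a subunit of the dolichol synthase, was higher by 0.95 ± 0.14 (2.41e-05) and 1.06 ± 0.14 (1.12e-05). So 2 subunits of enzymes that attach isoprenoids to proteins differed in opposite directions, each without overlap.

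Of 20 further fatty acid genes tested, 9 were higher (45%, against 28.8% of all genes) and 4 lower (20%, against 28.8%) in untreated skin, and the same numbers after MC903 (against 26.5% and 24.5%). Ptplad1, a dehydratase of the elongation cycle, was 215, 202 and 228 CPM in LN and 866, 538 and 894 CPM in untreated skin (1.83 ± 0.16, 1.35e-07; 1.94 ± 0.16, 1.01e-07 after MC903). Mid1ip1, an activator of acetyl-CoA carboxylase, was 21.5, 20.5 and 16.5 CPM in LN and 63.2, 74.2 and 46.1 CPM in untreated skin (1.65 ± 0.17, 9.47e-07; 1.32 ± 0.17, 1.28e-05). Malic enzyme Me1 was at 0 in 2 LN libraries and 0.0314 CPM in the third, and 8.27, 12.8 and 0.108 CPM in untreated skin. The higher genes in untreated skin also included Elovl3, which is on the sebocyte list, and Elovl4, named here after its values were seen, at 43.1 and 112 CPM in replicates 1 and 2 and lower in replicate 3. Me1, Elovl3 and Elovl4 were all highest in WT untreated replicate 2, the library of that group richest in sebocyte and adipocyte markers, and lowest in replicate 3. Those summed markers were 46.2, 227 and 79.7 CPM in replicates 1, 2 and 3, so replicate 3 was not the lowest in them. Which cells these transcripts came from was not tested. Acss1, the mitochondrial acetyl-CoA synthetase, was lower after MC903 (-1.70 ± 0.30, 0.000222).

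Of 24 further genes of sterol regulation, uptake and export, 9 were higher (37.5%, against 28.8%) and 6 lower (25%, against 28.8%) in untreated skin, and 7 (29.2%, against 26.5%) and 5 (20.8%, against 24.5%) after MC903. Lipa, the lysosomal lipase that frees cholesterol from its esters, was 100, 99.8 and 87.4 CPM in LN and 47.6, 38.4 and 37.0 CPM in untreated skin (-1.22 ± 0.16, 6.86e-06). Rnf139, a sterol-responsive ubiquitin ligase, was higher by 1.12 ± 0.14 (8.10e-06) and 1.07 ± 0.14 (1.83e-05), and Nr1h2, the oxysterol receptor LXRβ, by 0.64 ± 0.12 (0.000208) in untreated skin. After MC903, Mbtps1, the protease that first cuts SREBPs, was lower (-0.82 ± 0.16, 0.000623), and the oxysterol binding protein Osbp higher (1.64 ± 0.34, 0.000942).

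The genotype comparison asked whether deleting Rora in Tregs changed these genes. In untreated skin edgeR called 0 of the 34 genes, against 0.803% of all genes (0.398% higher and 0.405% lower), with 9 at an unadjusted p under 0.05 (26.5%, against 11.5% of all genes), and 0 by DESeq2 and by limma-voom. In MC903 skin it called 0, against 0.258% of all genes (0.081% higher and 0.177% lower), with 3 at an unadjusted p under 0.05 (8.8%, against 6.8%), and again 0 by both other tools. Averaged over treatments it called 0, against 1.75% (0.884% higher and 0.862% lower), with 7 at an unadjusted p under 0.05 (20.6%, against 11.8%) and 0 by DESeq2, while limma-voom called Elovl5 lower. The groups did not overlap for 3 genes in untreated skin (8.8%, against 13.6%) and 6 in MC903 skin (17.6%, against 16%). Median log2 differences were 0.11 and -0.05, against 0.00 and -0.01 for all genes. The called and non-overlapping counts lay near or below the background, while the shares at an unadjusted p lay above it.

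The genes whose libraries were apart in untreated skin were Cyp51, Dhcr7 and Mvd. Cyp51 was 167, 172 and 183 CPM in cKO against 153, 98.9 and 148 CPM in WT (0.38 ± 0.17, adjusted p = 0.385), and Dhcr7 was 15.3, 16.0 and 12.7 CPM against 11.1, 8.89 and 10.7 CPM (0.52 ± 0.23, 0.388). Mvd, mevalonate diphosphate decarboxylase, was 16.5, 10.7 and 8.36 CPM in cKO against 16.7, 29.0 and 21.0 CPM in WT (-0.91 ± 0.30, 0.228). In each, the closest libraries of the genotypes lay near one another, and for Mvd they nearly touched. Standard errors of 0.17 to 0.30 leave room for differences of that order.

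In MC903 skin the genes apart were Msmo1 and Ebp, with cKO above WT, and Fdft1, Scap, Fasn and Elovl5, with cKO below. Ebp, a sterol isomerase, was 152, 161 and 138 CPM in cKO against 137, 107 and 124 CPM in WT (0.29 ± 0.15, 0.794). Fasn was 45.3, 35.0 and 43.4 CPM against 61.6, 53.5 and 63.9 CPM (-0.53 ± 0.24, 0.725), and Scap 29.8, 27.4 and 36.5 CPM against 40.4, 44.3 and 48.9 CPM (-0.51 ± 0.26, 0.794). Elovl5 was 617, 657 and 559 CPM against 806, 680 and 906 CPM (-0.38 ± 0.14, 0.4996). Averaged over treatments its difference was -0.30 ± 0.10 (0.172), and it was called by edgeR without WT untreated replicate 2 and by limma-voom (smallest adjusted p 0.0391). The differences of Msmo1 and Fdft1 were 0.29 ± 0.26 (0.959) and -0.32 ± 0.14 (0.701). None of the 3 further pathway lists had a gene called by edgeR, DESeq2 or limma-voom in either skin or averaged, with 0 to 2 genes per list at an unadjusted p under 0.05.

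MC903 against untreated skin gave few differences, and the site sampled moves with it. In WT, 2 of the 34 genes were higher (5.9%, against 5.03% of all genes) and 3 lower (8.8%, against 5.44%), 5 in all (14.7%, against 10.5%). In cKO, 1 was higher (2.9%, against 5.96%) and 3 lower (8.8%, against 5.3%), 4 in all (11.8%, against 11.3%). Median log2 differences were -0.03 in WT and -0.28 in cKO, against 0.01 and -0.01 for all genes. Libraries did not overlap for 9 genes in WT (26.5%, against 28.2%) and 10 in cKO (29.4%, against 33.4%). None of the 5 calls in WT and 1 of the 4 in cKO held under all alternatives.

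Ebp was higher after MC903 in both genotypes. It was 72.4, 90.3 and 85.8 CPM in WT untreated skin and 137, 107 and 124 CPM after MC903, and 92.0, 87.6 and 71.1 CPM against 152, 161 and 138 CPM in cKO. The treated libraries lay above all untreated libraries. The differences were 0.57 ± 0.15 (0.0260) and 0.85 ± 0.15 (0.00274), and the one in cKO held under all 16 alternatives, while the one in WT was lost without WT untreated replicate 1, WT MC903 replicate 1 or WT MC903 replicate 3 (adjusted p up to 0.225). The interaction was 0.28 ± 0.21 (0.909). Ggps1 was 65.8, 49.0 and 60.6 CPM against 86.1, 75.0 and 80.5 CPM in WT (0.46 ± 0.14, 0.0404) and 60.8, 56.6 and 61.6 CPM against 75.9, 81.5 and 77.2 CPM in cKO (0.39 ± 0.14, 0.0748). It was apart in both genotypes and called by edgeR in WT, and in cKO by DESeq2 and limma-voom (smallest adjusted p 0.0289). In WT 12 of 16 alternatives lost the call. Among these were limma-voom, no filter, the replicate block and the compared groups alone, but not DESeq2. The WT call was lost when any 1 of WT untreated replicates 2 and 3 or the 3 WT MC903 libraries was left out (up to 0.241).

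Acat2 was lower after MC903 in both genotypes, at 44.3, 59.3 and 44.4 CPM against 33.0, 33.0 and 34.3 CPM in WT and 48.7, 55.5 and 50.9 CPM against 29.0, 39.4 and 28.5 CPM in cKO. No treated library reached an untreated one (-0.56 ± 0.16, 0.0339, and -0.68 ± 0.16, 0.0133). The call in WT was lost without WT untreated replicate 2 or any 1 WT MC903 library (up to 0.329), and the one in cKO without cKO untreated replicate 2 or cKO MC903 replicate 1 or 3 (up to 0.0690). Elovl1 in WT was 206, 241 and 186 CPM against 164, 153 and 172 CPM (-0.37 ± 0.11, 0.0427), lost without WT untreated replicate 1 or 2 or any 1 WT MC903 library (up to 0.476). The WT calls of Acat2, Elovl1 and Tm7sf2 were also lost with limma-voom and with only the compared groups in the fit. Tm7sf2 in WT was 2.51, 9.86 and 3.93 CPM against 1.65, 0.854 and 2.06 CPM (-1.84 ± 0.52, 0.0350). Its groups were apart by little, and the call was lost without WT untreated replicate 2, the highest library, or any 1 WT MC903 library (up to 0.232).

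In cKO, squalene epoxidase Sqle was 46.8, 41.5 and 35.8 CPM untreated and 29.6, 14.2 and 22.3 CPM after MC903 (-0.91 ± 0.25, 0.0306). The same gene in WT was 36.7, 24.9 and 21.0 CPM against 20.04, 19.0 and 27.0 CPM, which overlapped (-0.32 ± 0.25, 0.460), and the interaction was -0.58 ± 0.36 (0.888). Hsd17b7 in cKO was 41.1, 21.0 and 23.1 CPM against 13.9, 4.85 and 10.7 CPM (-1.53 ± 0.44, 0.0353). Both calls were lost without any 1 cKO untreated library or without cKO MC903 replicate 2 or 3 (up to 0.133 for Sqle and 0.170 for Hsd17b7). Srebf2, which encodes the main regulator of the sterol genes, was 192, 255 and 253 CPM against 171, 117 and 156 CPM in cKO, apart but not called (-0.66 ± 0.21, 0.0569), and 263, 201 and 137 CPM against 109, 128 and 164 CPM in WT, which overlapped (-0.58 ± 0.21, 0.0923). Insig1 in cKO was 57.0, 53.9 and 77.3 CPM against 49.6, 37.5 and 38.1 CPM (-0.59 ± 0.19, 0.0586). Both of these in cKO passed the threshold with DESeq2 and with limma-voom.

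**Figure D4:**
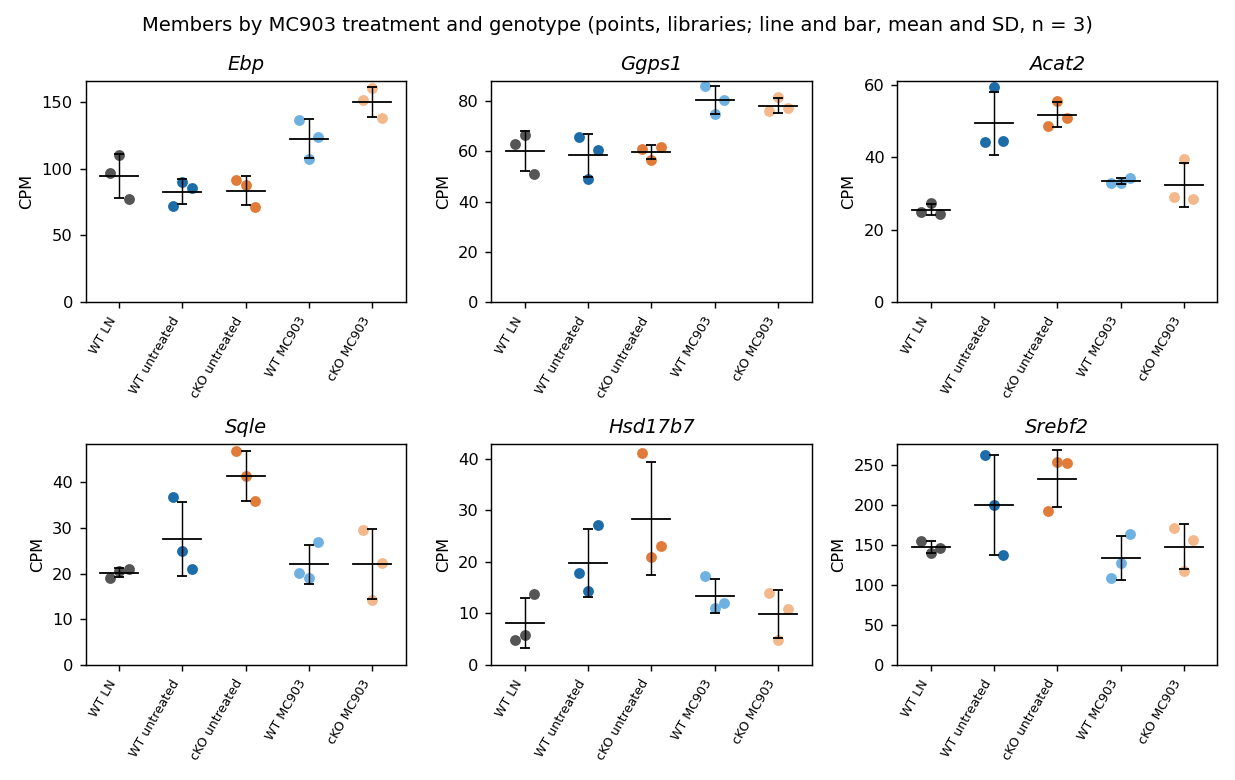
CPM of 6 genes by group, each point a library, with the mean (line) and SD (bar) of 3 libraries. Ebp and Ggps1 are higher and Acat2 lower in MC903 skin than in untreated skin of both genotypes without overlap. Ggps1 in cKO is called by DESeq2 and limma-voom but not by edgeR, and in WT by edgeR and DESeq2 but not by limma-voom. Sqle, Hsd17b7 and Srebf2 overlap between treatments in WT.

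The genotype by MC903 interaction was called by edgeR for 0 of the 34 genes and 0 of all 13578 (0%), with 4 (11.8%) and 765 (5.6%) at an unadjusted p under 0.05. DESeq2 called 17 genes and limma-voom 0, none of them among the 34. Of the further pathway genes, MC903 gave 1 call by edgeR in WT, Lipa (0.76 ± 0.15, 0.00581). DESeq2 called Lipa and 6 others there, and limma-voom Lipa and 1 other. In cKO edgeR called 1 of the 20 fatty acid genes higher and 1 of the 24 genes of sterol regulation lower. The former, Oxsm, a mitochondrial fatty acid synthase enzyme, was 1.78, 1.77 and 1.09 CPM untreated and 5.83, 3.64 and 3.29 CPM after MC903, without overlap (1.46 ± 0.43, 0.0384).

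Scd1, the stearoyl-CoA desaturase known for its abundance in sebaceous glands and fat, varied over a wide range within groups. It was 60.04, 133 and 0.915 CPM in WT untreated skin, 375, 4.53 and 4.14 CPM in cKO untreated skin, 0.262, 0.409 and 4.12 CPM in WT MC903 skin, 1.30, 1.65 and 20.03 CPM in cKO MC903 skin and 5.65, 5.04 and 23.6 CPM in LN. It was called by edgeR in none of the comparisons. Its MC903 difference in WT was -5.35 ± 2.25 (0.163), which DESeq2 called (0.0157) and limma-voom did not. The 2 highest libraries were also the highest in summed sebocyte and adipocyte markers, though not in every gene of that list. Mgst1 was 109 CPM, Elovl3 42.8, Cidea 38.7, Far2 32.1 and Awat1 13.5 CPM in cKO untreated replicate 1, and Mgst1 was 88.7, Cidea 19.8 and Elovl3 16.0 CPM in WT untreated replicate 2. In the same order of libraries, Pparg was 23.0 and 5.08 CPM, the latter the lowest of skin, and Lpl 4.02 and 6.15 CPM. Awat2 was 1.91 and 0 CPM, Mc5r 0.889 and 0 CPM, and Cfd 0 in both. Of the genes on that list known from fat, Adipoq, Plin1 and Cidec were at or below 0.254 CPM in all skin libraries and Lep was at 0 in all 15. Fabp4, which endothelium also expresses, was 0.821 to 73.4 CPM in skin and at most 0.251 CPM in LN, and Car3 was 37.8 CPM in WT untreated replicate 2 and at most 0.678 CPM elsewhere. Which cells the Scd1 transcript came from was not tested.

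The same cKO library was the highest of all 15 in Elovl6 (234 CPM, against 37.3 and 56.0 CPM in its group), Msmo1 (148 CPM, against 62.3 and 72.1 CPM) and Hsd17b7 (41.1 CPM). The cKO minus WT differences of Elovl6 (1.39 ± 0.56, 0.363) and Msmo1 (0.43 ± 0.26, 0.563) in untreated skin include it. With that library and WT untreated replicate 2 left out, edgeR again called 0 of the 34 genes by genotype in untreated skin, but 9 of them changed sign, and all genes called went from 109 to 60. For MC903 in cKO, Hsd17b7 and Sqle were then no longer called, though the log2 difference of Hsd17b7 was -1.16 or further below 0 under every alternative. Insig1 and Srebf2 were then called lower and Pmvk and Insig2 higher.

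**Figure D5:**
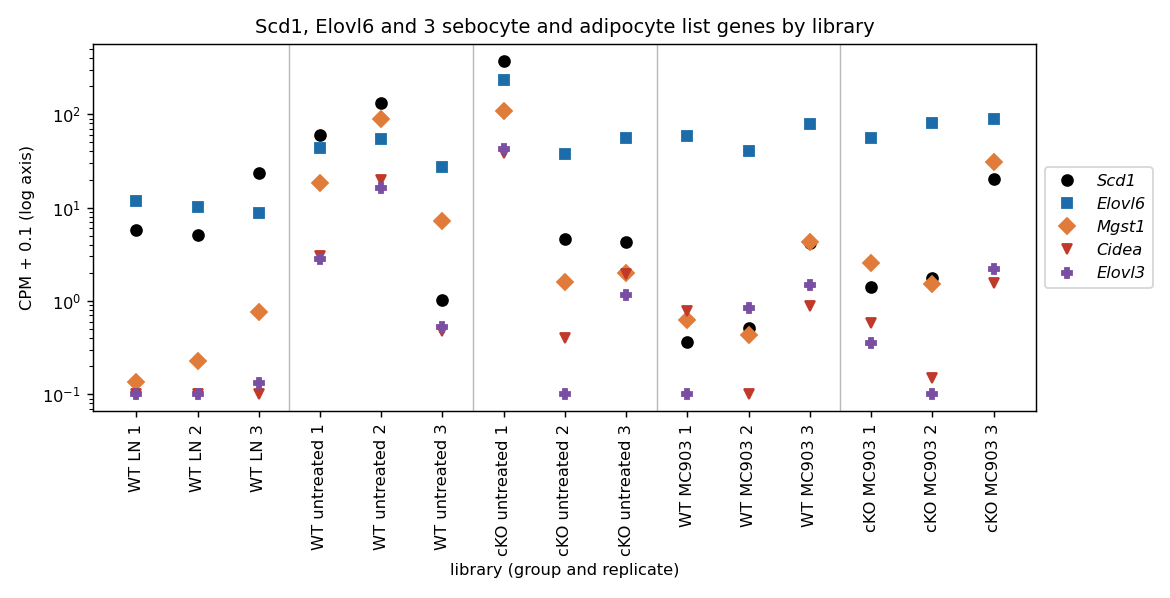
CPM + 0.1 on a log axis of Scd1, Elovl6 and 3 genes of the sebocyte and adipocyte list, by library. Scd1 follows Mgst1, Cidea and Elovl3 in being highest in cKO untreated replicate 1 and WT untreated replicate 2; Elovl6 stays above the LN libraries in every skin library.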

How the data were processed

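Per the labels' protocols, libraries came from total RNA of sorted Tregs (SMART-Seq v4, single-end, 75 bp). Per the submitters' processing notes, the aligner was TopHat2 2.0.6, the build mm9 and the authors' test DESeq2, with no version; the counting tool, annotation and use of strand are not given in the sources used here. The authors deposited raw counts per gene and library. They also deposited an LN against skin table which, per the file headers, holds a mean signal, a log2 fold change with its error, a score and p-values; only its calls were used.

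The counts were tested in R 4.3.3 with edgeR 4.0.16. Genes were kept by filterByExpr (minimum count 10), scaled by TMM and fitted in 1 model of 15 libraries, with the robust quasi-likelihood F test and Benjamini-Hochberg adjustment over 13578 genes. The biological coefficient of variation was 37.2%. Errors beside log2 differences are SE, taken from the F statistic, and the value after each is the adjusted p. DESeq2 1.42.0, limma-voom (limma 3.58.1), other scaling and filters, the compared groups alone, a replicate block and left-out libraries were alternatives. The fit was tested on simulated counts with 200 changed genes. Groups came from the sample titles. No molecular identifiers are described, so reads can include PCR copies.

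The member genes and the other lists were chosen with earlier results of these data known. Each member found is named; from each of the 3 further pathway lists up to 3 called genes with the smallest adjusted p are named per comparison, except for items not reported here.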

Additional observations from a re-analysis of the deposited data

How the results depend on the processing

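No called member changed direction under an alternative, and 325 of 4748 values of members did, all of them of members not called. Of members called somewhere, the direction turned for Srebf2 in untreated skin against LN (-0.11) and Scd1 for MC903 in WT (0.80). Both turned without the 3 libraries richest in epithelial and fat markers (WT untreated replicates 1 and 2 and cKO untreated replicate 1). That alternative leaves WT untreated skin with replicate 3 alone, the lowest of its group for Srebf2 (137 CPM) and Scd1 (0.915 CPM). The cause of the turn was not tested. Counts of genes called under that alternative are listed below, also where WT untreated skin is compared. These are the counts by genotype in untreated skin, by genotype averaged over treatments and for MC903 in WT. In them WT untreated skin is replicate 3 alone, without a spread of its own, so no conclusion is drawn from them. Counts of all genes called by genotype in untreated skin went from 109 to 323 with DESeq2, 45 without those 3 libraries, 54 without the 3 richest in fibroblast and endothelial markers (cKO MC903 replicate 3, WT MC903 replicate 3 and cKO untreated replicate 1) and 60 without WT untreated replicate 2 and cKO untreated replicate 1, an alternative chosen after seeing the data. In MC903 skin they went from 35 to 140 with DESeq2, 104 with limma-voom, 61 without the epithelium-rich and 13 without the fibroblast-rich libraries. Averaged over treatments they went from 237 to 462, 142 and 107 with DESeq2 and without either trio, and limma-voom called 1 member lower. For MC903 in WT, the 2 members higher became 1 with no filter, 0 in the compared groups alone and 0 without the fibroblast-rich libraries. The 3 lower became 5 with DESeq2, 0 with limma-voom, 0 in the compared groups alone, 1 without the fibroblast-rich and 0 without the sebocyte-rich libraries. All genes called there went from 1421 to 541 in the compared groups alone and to 290 and 758 without either trio. For MC903 in cKO, the 1 member higher became 2 with DESeq2, 3 with limma-voom, 3 without the epithelium-rich, 2 without the fibroblast-rich and 3 without the sebocyte-rich libraries; the 3 lower became 5 with 50 counts required in 3 libraries, 7 with DESeq2, 6 with limma-voom, 5 in the compared groups alone and 0 without the fibroblast-rich libraries. All genes called there went from 1529 to 2642 with limma-voom, 2401 without the epithelium-rich and 2365 without the sebocyte-rich libraries. The interaction went from 0 genes to 17 with DESeq2 and 1 without the fibroblast-rich libraries. Leaving out 1 library at a time gave 60 to 133 genes by genotype in untreated skin, 22 to 31 in MC903 skin and 159 to 223 averaged, with 0 to 1 members lower in the last. For MC903 it gave 767 to 1410 genes, 0 to 1 members higher and 0 to 4 lower in WT, and 645 to 1895 genes, 1 to 2 members higher and 0 to 3 lower in cKO; for the interaction it gave 0 to 1 genes. Replicate numbers did not pair the libraries: correlations of same-numbered libraries ran from -0.28 to 0.22, 3 of 30 were above 0.1, and 5 of 15 libraries correlated best with their own number. With the replicate block, MC903 in WT had 1 member higher and 1 lower. With 3 libraries a group, differences of low genes such as Fads2 and of uneven ones such as Scd1 are limited by counting and spread.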
